A study of Mus musculus with 18 samples.

Results

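The lowest dose of benzo(a)pyrene (BaP) in a 28-day study, 25 mg/kg/day, was compared with the vehicle in mouse liver. The comparison covers 8 of the 18 arrays, namely the 5 labelled 25 mg/kg and the 3 labelled 0 mg/kg, and every miRNA name that could be tested on them. All mice were male Muta™Mouse (transgenic mouse strain 40.6), 25 weeks old per the labels, and all carried the lacZ transgene, a bacterial gene whose mutations can be scored in any tissue. Treatment was by oral gavage, and the mice were given olive oil alone or BaP in olive oil on each of the 28 days, and part of the liver was taken 3 days after the last dose. Each array holds total RNA of 1 animal, so the p-values measure the spread between animals. The model was fitted to all 18 arrays, which include 5 at 50 and 5 at 75 mg/kg/day BaP. The estimate of the spread therefore draws on those animals too, and slide 2 held only those doses. Other control animals of the study are not analysed here. The array titles give a sample number and no stated animal number. The numbers used below are others and only name the arrays. Control 1 and dosed animals 1 and 2 were on slide 1, and controls 2 and 3 and dosed animals 3, 4 and 5 were on slide 3.

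MicroRNAs are short RNAs that lower the translation or stability of messenger RNAs, which they find mainly through their seed, bases 2 to 8 of the mature strand. BaP is a polycyclic aromatic hydrocarbon that liver enzymes convert to metabolites that bind DNA, and DNA damage activates the transcription factor p53. MiR-34a is a direct transcriptional target of p53 and lowers regulators of the cell cycle and of cell survival. The question of the comparison was whether the lowest dose alters hepatic miRNA levels.

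The mature sequences of the miRNAs that the results turn on are shown so that miRNAs with a common seed can be told apart. They were taken from RefSeq (build GRCm38.p6) and run from 5′ to 3′, with the seed in capitals. Array names without an arm were read as the dominant arm. Of 21 names looked up 19 were matched, and miR-23b-3p and miR-720 had no entry. MiR-34a lies at chr4:150068473-150068494 on the plus strand, in Mir34a.
miR-34a-5p: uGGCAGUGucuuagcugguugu
The next miRNAs come from a pair of similar clusters, Mir23b, Mir27b and Mir24-1 at chr13:63300492-63301272 and Mir23a, Mir27a and Mir24-2 at chr8:84208527-84208896. MiR-24-3p is encoded in both, and miR-27a-3p and miR-27b-3p differ at 1 of 21 bases.
miR-27a-3p: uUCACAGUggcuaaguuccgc
miR-27b-3p: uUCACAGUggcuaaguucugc
miR-23a-3p: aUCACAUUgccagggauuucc
miR-24-3p: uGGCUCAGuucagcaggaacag
MiR-322 lies on the X chromosome at chrX:53054306-53054327, minus strand, and shares its seed with the miRNAs 15a, 15b and 16. It differs from these at 7, 6 and 10 of 22 bases.
miR-322-5p: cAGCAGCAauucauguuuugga
miR-15a-5p: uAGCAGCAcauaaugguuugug
miR-15b-5p: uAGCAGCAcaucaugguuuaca
miR-16-5p: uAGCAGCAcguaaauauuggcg
The next miRNAs are those with the smallest P among the lower ones after miR-322, and their seeds differ from one another and from those printed above.
miR-148a-3p: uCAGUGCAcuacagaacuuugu
miR-7a-5p: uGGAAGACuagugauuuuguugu
miR-199a-3p: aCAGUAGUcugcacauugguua
miR-10a-5p: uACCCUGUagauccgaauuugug
The last pairs are shown because members with a common seed are compared below. The miR-26 pair differs at 2 of the 21 bases compared, and let-7c and let-7g differ at 3 of 22.
miR-26a-5p: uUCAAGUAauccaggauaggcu
miR-26b-5p: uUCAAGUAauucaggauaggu
let-7c-5p: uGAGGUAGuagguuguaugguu
let-7g-5p: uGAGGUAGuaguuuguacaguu

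The arrays differed in how much signal they gave. The extraction software called 114, 97 and 80 mouse names detected in controls 1 to 3, and 118, 93, 56 and 69 in dosed animals 2 to 5, with the highest number of the 8 arrays in dosed animal 1. The summed total gene signal was 56870, 63631 and 36943 in controls, against 54192, 43670, 43048, 17417 and 21828 in dosed animals. Dosed animals 4 and 5, both on slide 3, had the lowest sums of the 8 arrays. The number of names detected was 97 ± 17 (SD, n = 3) in controls and 95.8 ± 35.5 (SD, n = 5) at 25 mg/kg/day (exact two-sided permutation P = 0.964, and P = 0.80 within slides). Every array differed from every other in its values, and the pairwise correlation across names lay between 0.945 and 0.998. The number of arrays limits the precision, which is given by the intervals below.

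After normalisation, 69 names passed the filter for presence, 68 of them mouse miRNAs and 1 from a murine herpesvirus. Of these, 45 were well above background on all 8 arrays, and 2 were kept only for their presence at the higher doses. All values below are log2 signals normalised by cyclic loess without background subtraction, and a difference is that signal at 25 mg/kg/day minus vehicle with slide in the fit. At 25 mg/kg/day 0 of 69 names (0%) had an adjusted P below 0.05 by limma, and the smallest adjusted P was 0.317. With the 8 arrays alone in the limma fit the count was also 0, and the smallest adjusted P was 0.559. Before adjustment 7 of 69 (10.1%) had a P below 0.05, of which miR-27b, miR-34a, miR-720 and miR-24 were higher (5.8%) and miR-322, miR-148a and miR-7a were lower. In all, 30 names lay above 0 and 39 below, with a median difference of -0.02 and a median SE of 0.06.

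The 95% confidence intervals say which sizes of change remain possible in this signal. They lay entirely within 1.5-fold in either direction for 66 of 69 names and within 1.2-fold for 52. The median interval reached 0.12 log2 units to each side. The 3 names whose interval reached 1.5-fold were miR-34a (1.06-fold to 1.73-fold), miR-1224 (0.797-fold to 1.88-fold) and miR-451 (0.524-fold to 1.2-fold). Because background was not subtracted, changes of dim miRNAs are understated on this scale.

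**Figure D1:**
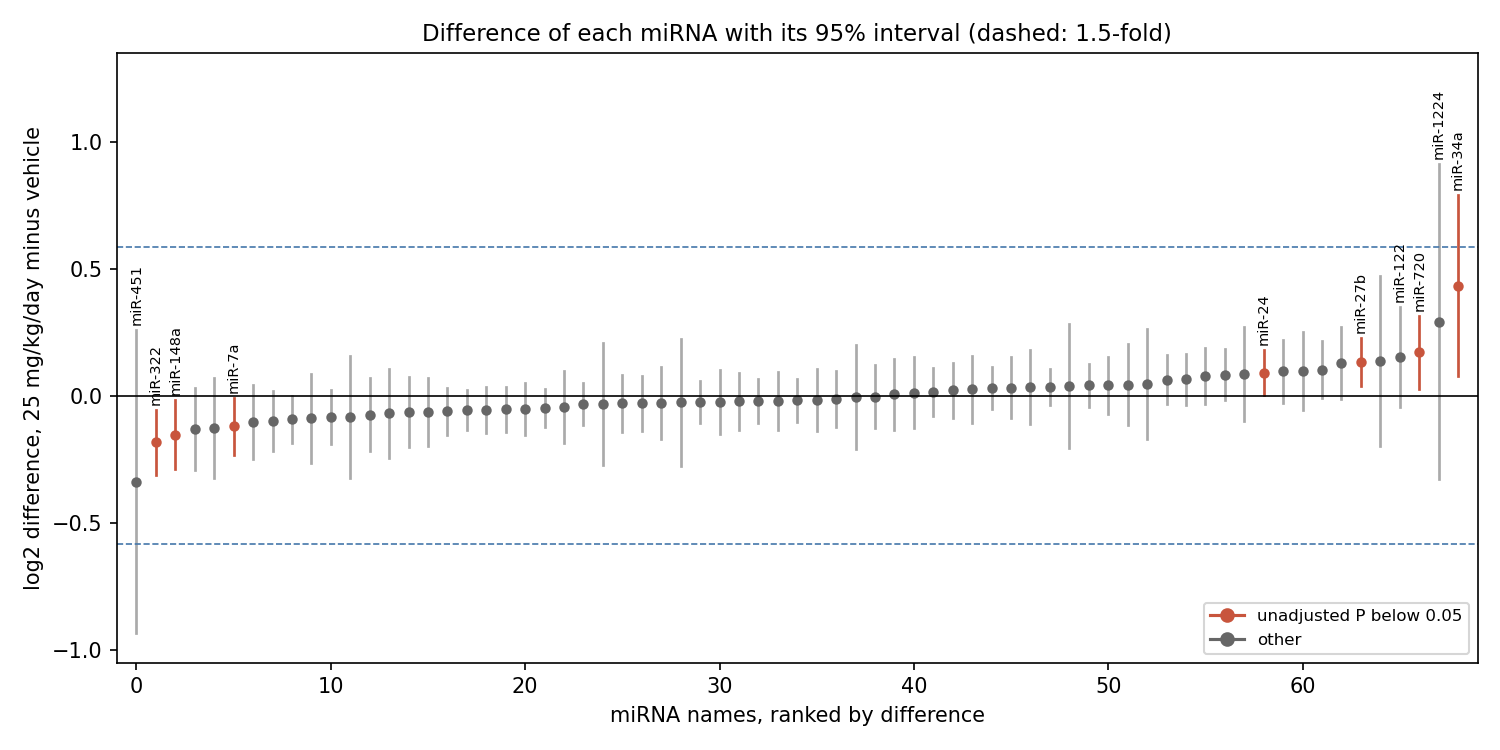
The log2 difference (25 mg/kg/day minus vehicle, y axis) of each of the 69 names, ranked along the x axis, with its 95% confidence interval from limma as a vertical line. The 7 names in red had an unadjusted P below 0.05, none passed after adjustment, and 66 intervals stay inside the dashed lines at 1.5-fold.

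The plot of ranked differences shows a shallow slope between miR-322 at -0.18 and miR-720 at 0.17. Apart from it lie miR-451 at -0.34 at the low end, and miR-1224 at 0.29 and miR-34a at 0.43 at the high end. Both ends also have wide intervals, since the values of these miRNAs varied more between animals than those of most others.

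MiR-34a had the largest difference of the 69 names. Its log2 signal was 5.64, 5.89 and 6.23 in controls 1 to 3, and 6.00, 5.79, 6.43, 6.90 and 6.54 in dosed animals 1 to 5. Over all arrays the groups overlapped, because both slide 1 animals lay below control 3. Within its own slide, each of the 5 dosed animals lay above every control, a pattern seen in 3 of 69 names (4.35%). The difference was 0.43 ± 0.17 (SE; 95% confidence interval 0.08 to 0.79; adjusted P = 0.378 by limma). It was 0.25 on slide 1 and 0.56 on slide 3, and the difference between slides was not past the threshold. Without dosed animal 4, the array with the lowest summed signal, it was 0.32. The size depended on the scaling, with 0.21 when array medians were centred, 0.27 in the authors' values, 1.16 with the processed signal and 1.58 with the total gene signal, none past the threshold. The processed and the total gene signal had low values raised to a common floor before log2. The part of that floor in the values of dim miRNAs was not tested.

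The array carries a pair of probes for miR-34a, and both are near the background. The brighter probe read 60, 80.5 and 75 scanner units in controls 1 to 3, where the negative control spots of the same arrays had medians of 45, 65 and 67. In dosed animals 1 to 5 it read 83.75, 58, 97, 99.25 and 73.5, against negative control medians of 43, 42, 63, 71 and 66.5. Before normalisation dosed animal 2 thus read below control 1, and dosed animal 5 below both controls of its slide. The brighter probe cleared the background limit on 2 of 3 controls and 4 of 5 dosed arrays, and its normalised difference was 0.56 ± 0.18 (SE; adjusted P = 0.296 over 112 probes by limma). The dimmer probe cleared it in 0 of 3 controls and 1 of 5 dosed animals, so its values are mostly bounds and no fold is given for it. It was kept for its presence at the higher doses, and its signal is part of the mean behind the 0.43. With only probes present in vehicle or at 25 mg/kg/day, which leaves the brighter probe, the difference of miR-34a was 0.56 (adjusted P = 0.205 by limma). Of the groups compared only 25 mg/kg/day met the filter for presence with that probe, which favours names that are high in dosed animals. The background-subtracted total gene signal that the software gives for miR-34a was 16.4, 12.1 and 7.13 in controls, and 42.6, 19.8, 24.2, 21 and 6.72 in dosed animals. By that unscaled measure 4 of the 5 dosed animals were above every control of their slide, and dosed animal 5 was below both.

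**Figure D2:**
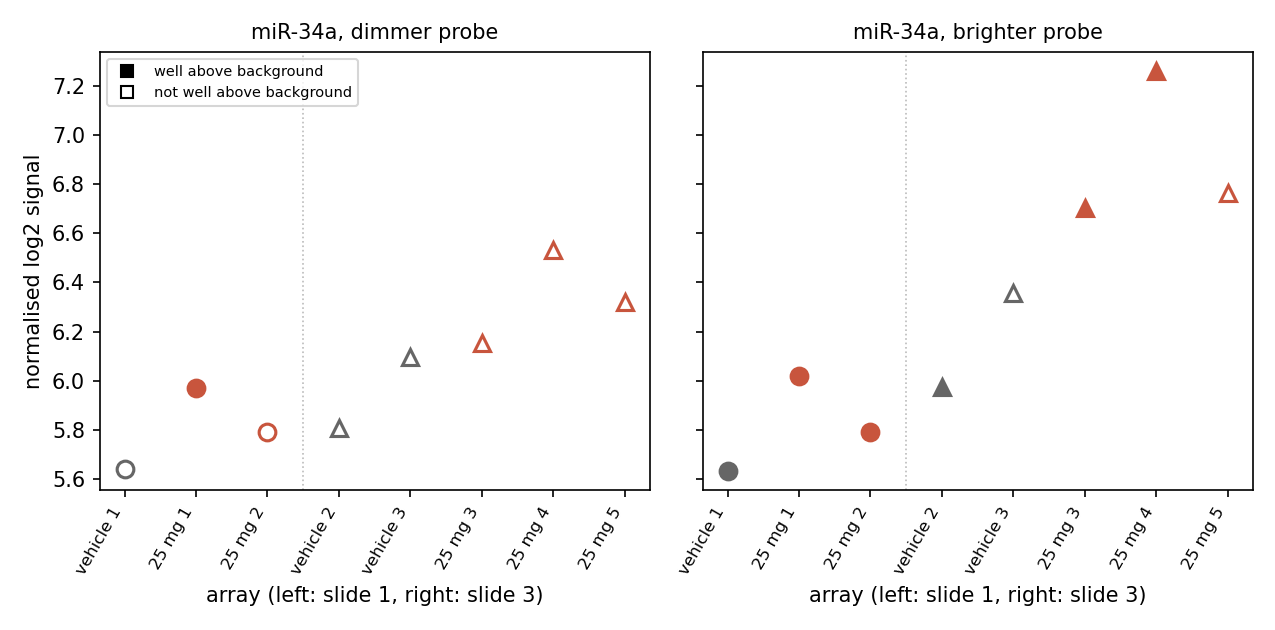
Normalised log2 signal (y axis) of the dimmer and the brighter miR-34a probe on each of the 8 arrays (x axis), with slide 1 as circles, slide 3 as triangles, controls in grey and 25 mg/kg/day in red. Filled symbols are arrays where the probe was well above background, which holds for 1 of 8 arrays with the dimmer probe and 6 of 8 with the brighter.

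In the plot of the miR-34a probes the dosed animals of each slide stand above the controls of that slide with either probe. Slide 3 stands above slide 1 in both groups. The family also holds miR-34c with its star strand and both arms of miR-34b, none of which had a probe well above background on these 8 arrays, and they were not tested.

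Of the other miRNAs higher at 25 mg/kg/day, miR-27b had the smallest P. MiR-27b is known to target regulators of lipid metabolism in liver. Its log2 signal was 6.68 in control 1 and 7.01 and 6.86 in the dosed animals of slide 1. On slide 3 it was 6.48 and 6.47 in controls and 6.51, 6.55 and 6.54 in dosed animals. Each dosed animal was above the controls of its slide, and 3 of the 5 dosed arrays were well above background. The difference was 0.13 ± 0.04 (SE; 95% confidence interval 0.04 to 0.23; adjusted P = 0.317 by limma). Most of it came from slide 1, where it was 0.26, against 0.06 on slide 3, and without control 1 it was 0.09 over the remaining arrays. The sign turned under other scalings, with -0.04 after quantile normalisation, -0.06 with array medians centred, -0.01 in the authors' values and -0.66 in the floored total gene signal.

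The other members of the paired clusters lay on the same side. MiR-24, which is known to lower cell cycle regulators, was 7.08 in control 1 and 7.24 and 7.33 in the dosed animals of slide 1. On slide 3 it was 7.21 in both controls and 7.25, 7.25 and 7.20 in the dosed animals. There the groups overlapped, and the difference over both slides was 0.09 ± 0.04 (SE; adjusted P = 0.438), against 0.04 without control 1. All 5 tested members were above 0, with a median of 0.09 and a range from 0.08 (miR-27a) to 0.13 (miR-27b), against a median of -0.02 over all 69 names. None of the 5 passed the adjusted threshold. MiR-27a was above every control of its slide in all 5 dosed animals, while miR-23b was so in 3. Probes for miRNAs that differ at 1 base may share signal, which was not tested. The direction also moved with the scaling. With array medians centred or with the authors' own values 0 of the 5 were above 0. There the median of the 69 names was -0.23 and -0.11, and in each 4 of the 5 lay above that median. With quantile normalisation and with the total gene signal 4 of 5 were above 0.

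MiR-720 is a name of the array whose sequence is now regarded as a transfer RNA fragment. Its log2 signal was 11.20 in control 1 and 11.39 and 11.42 in the dosed animals of slide 1, and 10.95 and 11.19 in controls against 11.07, 11.36 and 11.23 in dosed animals of slide 3. Dosed animal 3 lay between the slide 3 controls, and the other 4 lay above the controls of their slide. The difference was 0.17 ± 0.07 (SE; adjusted P = 0.378). With array medians centred it was -0.47. MiR-345-5p differed by 0.10 ± 0.05 (SE; adjusted P = 0.487), with 4 of 5 dosed animals above the controls of their slide. It was 0.05 without control 1, -0.03 with array medians centred and 0.39 with the processed signal.

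The miRNA with the smallest P of all was miR-322, a member of the seed group shown above that is known to restrain cell cycle progression. Its log2 signal was 6.27 in control 1 and 6.15 and 5.98 in the dosed animals of slide 1. On slide 3 it was 6.51 and 6.23 in controls and 6.2, 6.17 and 6.21 in dosed animals. All 5 dosed animals were below every control of their slide, as for 5 of 69 names (7.25%), and no dosed animal reached any control of either slide. The difference was -0.18 ± 0.06 (SE; 95% confidence interval -0.31 to -0.05; adjusted P = 0.317 by limma), with -0.20 on slide 1 and -0.18 on slide 3. Under other processing it kept its sign but ranged from -0.14 in the authors' values to -1.82 with the total gene signal, so its size is not settled. Low values of the total gene signal were raised to a floor before log2, and the part of that floor in the -1.82 was not tested. The gap on slide 3 was small against control 3. Leaving out 1 control moved the value either way. Without control 3 the difference was -0.26 (adjusted P = 0.0222), the sole case where leaving out 1 array brought a miRNA past the threshold, and without control 2 it was -0.12 (adjusted P = 0.660). The signal of miR-322 was well above background on 3 of 5 dosed arrays and all 3 controls. Of the groups compared only the vehicle thus met the filter for presence, which favours names that are high in controls.

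The other miRNAs with this seed gave values nearer 0. MiR-16 differed by 0.04 ± 0.07, miR-15b by 0.01 ± 0.04 and miR-15a by -0.07 ± 0.07 (SE), and none had an unadjusted P below 0.05. Of the 6 tested members of the family 4 were above 0 and 2 below, with a median of 0.01. With array medians centred or with the authors' values all 6 were below 0, though 4 of them lay above the median of all tested names in each. With array quality weights 5 were below 0. For miR-16 and miR-195 the slides pointed in opposite directions, at 0.26 and 0.23 on slide 1 and -0.08 and -0.13 on slide 3.

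MiR-148a, an abundant miRNA of hepatocytes known to act on lipid metabolism, was 8.69 in control 1 and 8.35 and 8.47 in the dosed animals of slide 1. On slide 3 it was 8.59 and 8.69 in controls and 8.71, 8.47 and 8.48 in dosed animals. Dosed animal 3 was above both of its controls, and the other 4 were below the controls of their slide. The difference was -0.15 ± 0.06 (SE; adjusted P = 0.432). It was -0.08 without control 1, and ranged from -0.03 with the total gene signal to -0.63 with array medians centred. MiR-7a, known to lower growth factor signalling, was 6.39 in control 1 and 6.25 and 6.19 in the dosed animals of slide 1, and 6.42 and 6.38 in controls against 6.37, 6.26 and 6.28 in dosed animals of slide 3. No dosed animal reached a control, although dosed animal 3 came close to control 3, and the difference was -0.12 ± 0.05 (SE; adjusted P = 0.438), against -0.06 without control 1. Under other processing it ranged from -0.09 without the filter on dim probes to -0.90 with the floored total gene signal. MiR-7a was well above background on 3 of 5 dosed arrays and all 3 controls, so only the vehicle met the filter for presence here too. MiR-199a-3p, which is known from stellate and other mesenchymal cells, had log2 signals of 6.57, 6.66 and 6.61 in controls and of 6.46, 6.48, 6.53, 6.52 and 6.58 in dosed animals. Each dosed animal was below the controls of its slide, and the difference was -0.09 ± 0.04 (SE; adjusted P = 0.451), nearly equal on both slides. The dimmer of its probes was well above background on 3 of 5 dosed arrays and all 3 controls, so only the vehicle met the filter with it. The brighter probe, well above background in all dosed animals and controls, gave -0.12. MiR-10a differed by -0.10 ± 0.06 (SE; adjusted P = 0.522), with 3 of 5 dosed animals below the controls of their slide, and by -0.06 without dosed animal 1. The remaining miRNAs with every dosed animal below the controls of its slide, miR-100 and miR-130a, differed by -0.06 ± 0.04 and -0.05 ± 0.04 (SE). MiR-100 was also well above background on 3 of 5 dosed arrays and all 3 controls. These are bulk samples, in which fewer cells of a type and less RNA per cell cannot be told apart.

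**Figure D3:**
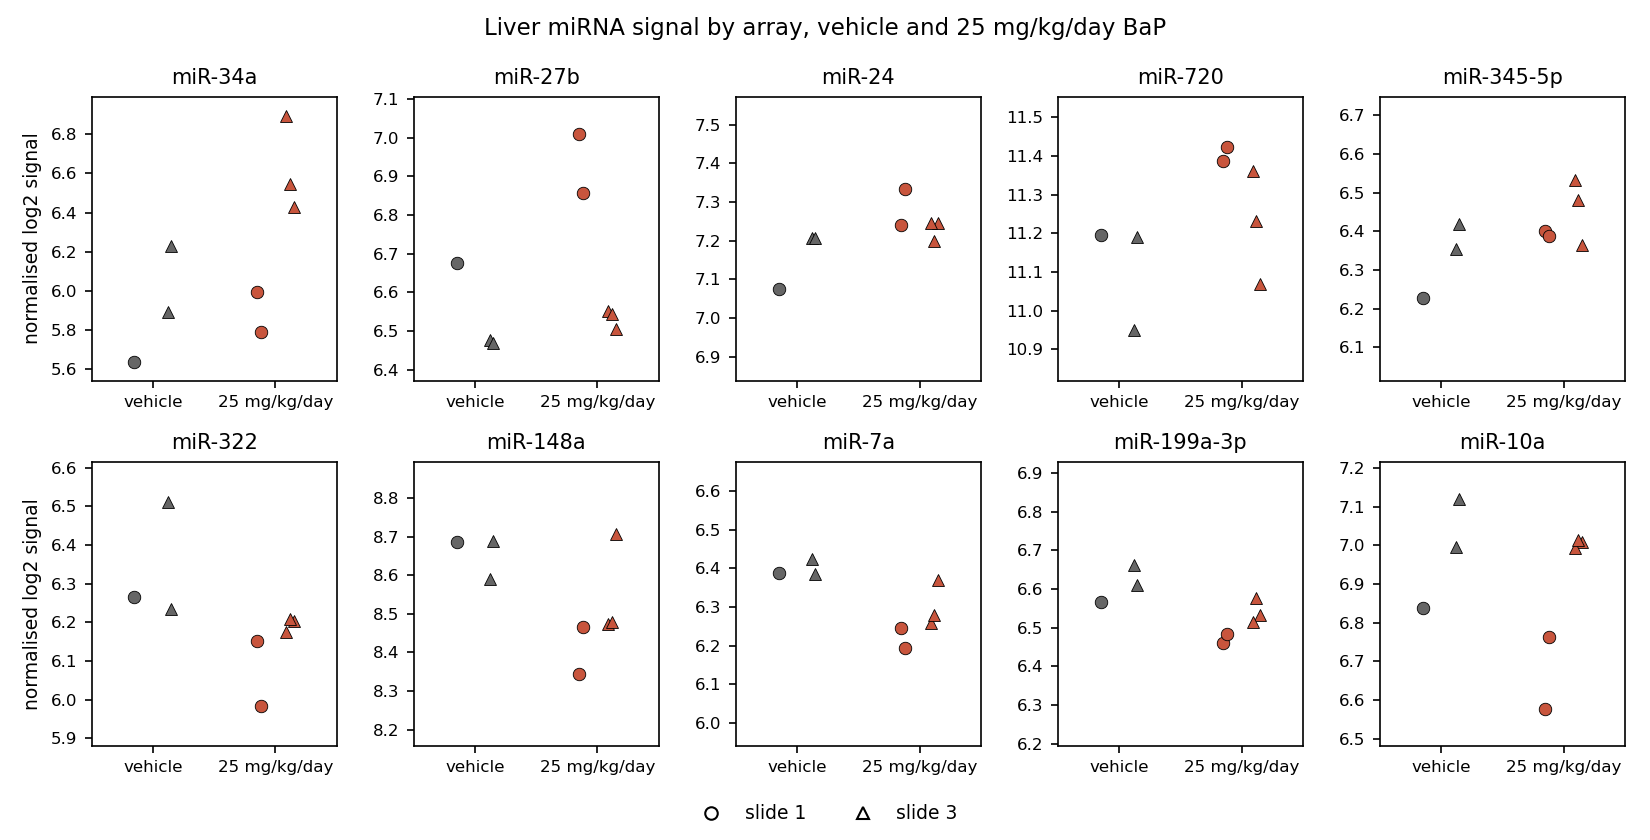
Normalised log2 signal (y axis, with its own range in each panel) of 10 miRNAs in 3 vehicle arrays (grey) and 5 arrays at 25 mg/kg/day (red), with slide 1 as circles and slide 3 as triangles. Within each slide all dosed arrays of miR-34a and miR-27b lie above the controls and all those of miR-322, miR-7a and miR-199a-3p lie below them, while the others overlap on slide 3.

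In the plot of values by array the circles and triangles of a group sit at different levels for several miRNAs, as for miR-27b and miR-10a. The groups are therefore to be read within a slide, and slide was kept in the fit.

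The changes on the slides had little in common. Across the 69 names, which are not independent replicates, the differences on slide 1 and on slide 3 correlated with a Pearson r of 0.13 (0.04 without miR-34a) and a Spearman rho of 0.05, and 37 of 69 names had the same sign on both. The arrays on the slides are different animals, and slide 1 rests on control 1 alone. A test of the difference between slides passed the adjusted threshold for miR-26b alone, 1 of 69 names (1.45%). MiR-26b was 8.30 in control 1 and 7.66 and 7.92 in the dosed animals of slide 1, but 7.39 and 7.40 in controls and 7.51, 7.48 and 7.44 in dosed animals of slide 3. It was thus -0.51 on slide 1 and 0.08 on slide 3 (adjusted P = 0.0196 for the difference by limma), and -0.13 ± 0.09 (SE) over both. The test of this difference lost its call with quantile normalisation, with array medians centred, with the authors' values, with the processed and the total gene signal, without the filter on dim probes, with the brightest probe, with the 8 arrays alone and without control 2, control 3 or dosed animal 4. Without dosed animal 2 the number of names with a difference between slides was 15. MiR-26a, which has the same seed, went the other way, at 0.29 on slide 1 and -0.10 on slide 3.

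**Figure D4:**
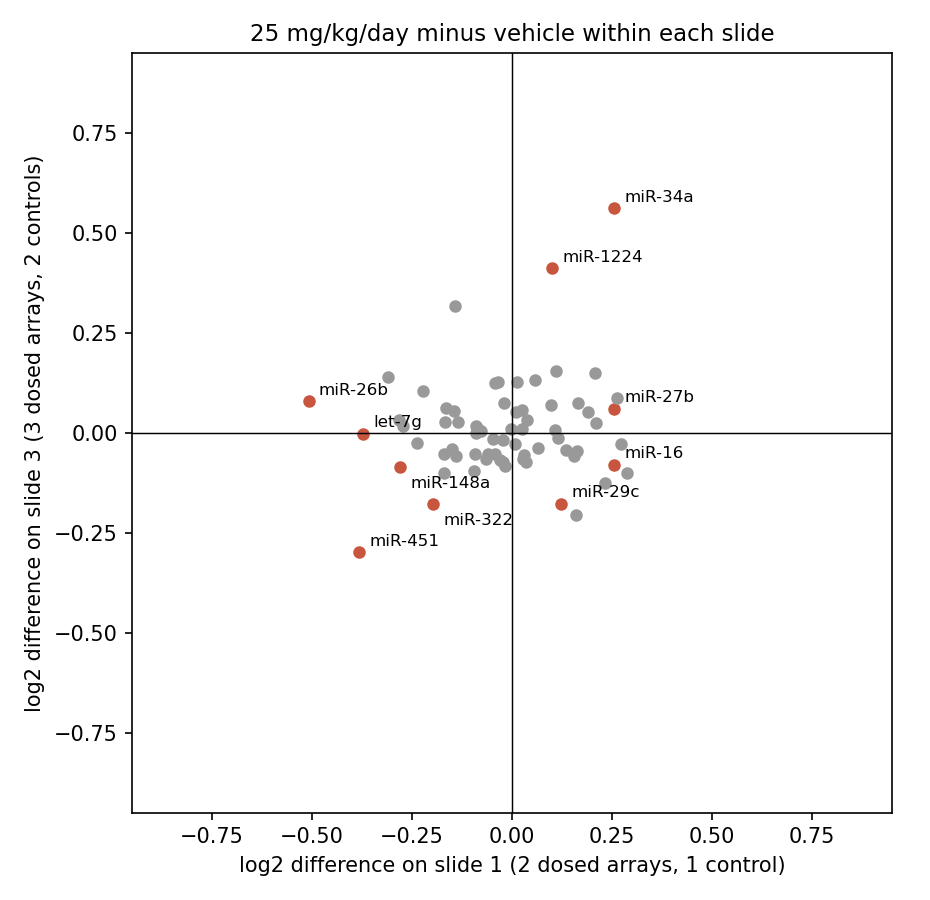
The log2 difference (25 mg/kg/day minus vehicle) of each of the 69 names on slide 1 (x axis, 2 dosed animals and 1 control) and on slide 3 (y axis, 3 dosed animals and 2 controls). MiR-34a stands apart at 0.25 and 0.56, miR-26b at -0.51 and 0.08, and the remaining names form a cloud around 0 with no clear slope.

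In the plot of the slides most names scatter more widely along the slide 1 axis. The differences had an SD of 0.17 on slide 1 and 0.13 on slide 3. MiR-451 lay at -0.38 and -0.30, miR-1224 at 0.10 and 0.41, and miR-322 at -0.20 and -0.18, each to the same side of 0 on both axes.

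The let-7 family, which is known to restrain growth and differs little in sequence between members, shows the same dependence. All 9 tested members were below 0, from -0.13 (let-7g) to -0.02 (miR-98), with a median of -0.04, and none had an unadjusted P below 0.05. The median was -0.17 on slide 1 and 0.02 on slide 3. Let-7g was 8.96 in control 1 and 8.48 and 8.71 in the dosed animals of slide 1, whereas on slide 3 it was 8.68 and 8.54 in controls and 8.57, 8.62 and 8.64 in dosed animals, which overlap. With array quality weights 4 of the 9 were below 0, with the processed signal 2, with the total gene signal 3, with quantile normalisation 7, and with the authors' values or without slide 8. No direction is therefore called for the family.

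The other families gave small values with no member past the adjusted threshold. The 3 miR-29 members, known to lower collagen genes, were all below 0, between -0.07 and -0.06, but miR-29a was 0.16 on slide 1 and -0.21 on slide 3, and miR-29c was 0.12 and -0.18. With the processed or the total gene signal 1 of the 3 was below 0, and with quantile normalisation 2. The 4 tested members of the family of miR-10, miR-99, miR-100 and miR-125 were all below 0 (median -0.06, from -0.10 for miR-10a to -0.03 for miR-125b-5p), and the median was -0.05 on slide 1 and -0.06 on slide 3. With quantile normalisation, the processed signal or the total gene signal 3 of these 4 were below 0. Of the 6 tested miRNAs linked to p53 other than miR-34, 3 were above and 3 below 0, from -0.07 (miR-15a) to 0.08 (miR-194). Of 5 tested members of the miR-17-92 and related clusters, which are known to favour proliferation, 2 were above and 3 below, all between -0.03 (miR-92a) and 0.03 (miR-106b). MiR-103 and miR-107 had 0.03 and -0.01.

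**Figure D5:**
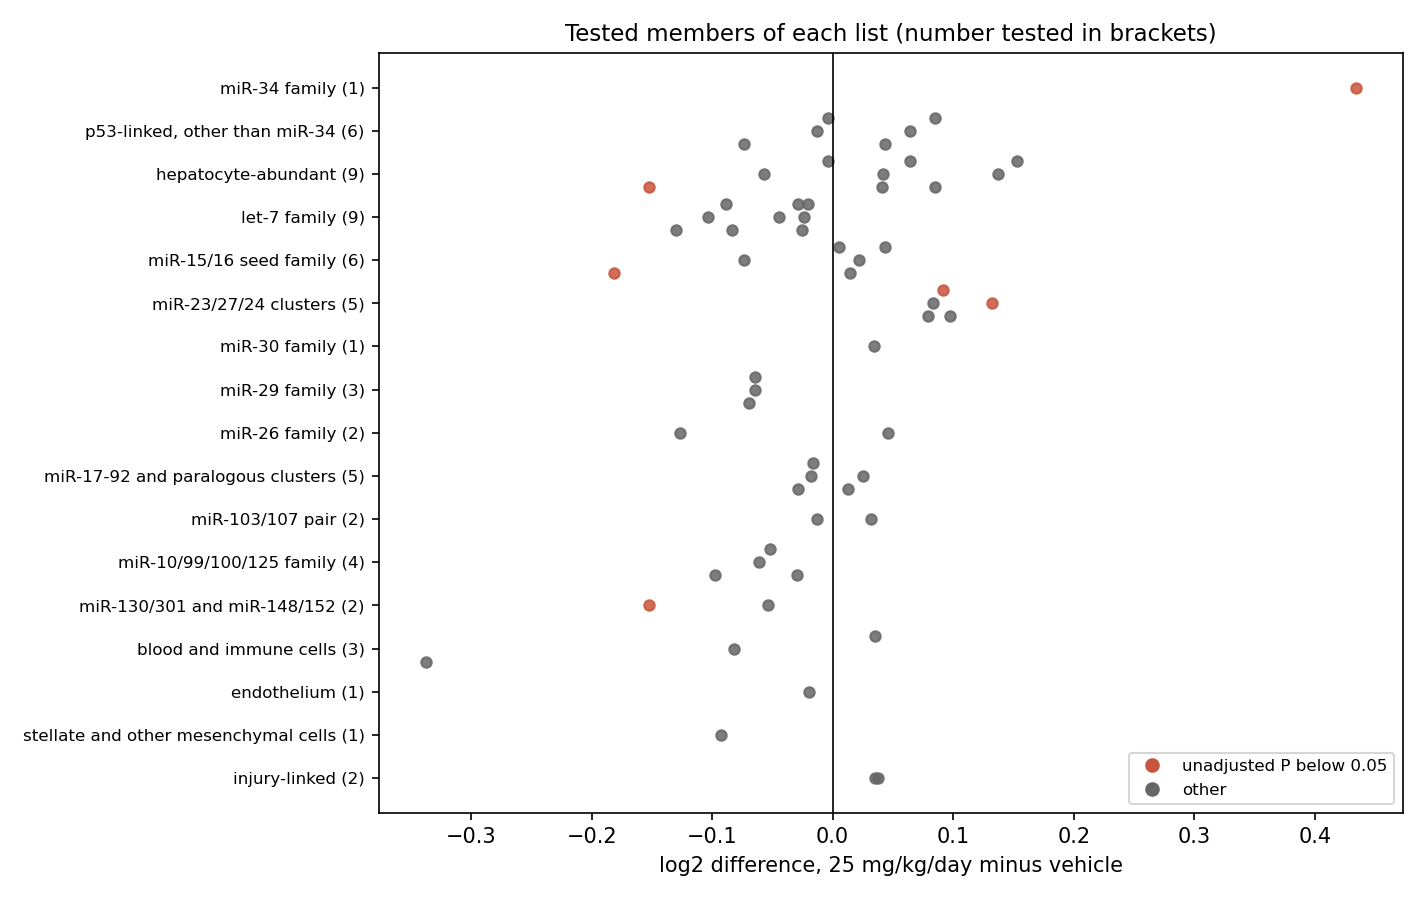
The log2 difference (25 mg/kg/day minus vehicle, x axis) of each tested member of the miRNA lists (y axis, with the number tested in brackets). Points in red had an unadjusted P below 0.05. The members of the let-7 and miR-29 lists all lie below 0, those of the miR-23/27/24 clusters all above, signs that turned for some or all members under other scalings, and none passed after adjustment.

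The plot of the lists shows miR-34a, miR-451 and miR-322 farthest from 0. Lists share members, such as miR-148a and miR-194, so their rows are not separate evidence.

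Markers of the cell types of the liver were read for the check of the tissue label. MiR-122, the defining miRNA of hepatocytes, was well above background on all 8 arrays, with log2 signals of 13.48, 13.51 and 13.52 in controls and 13.65, 13.83, 13.39, 13.77 and 13.64 in dosed animals. The controls lay close together, and 4 of 5 dosed animals were above them, dosed animal 3 being below. The difference was 0.15 ± 0.09 (SE; adjusted P = 0.524). All 9 miRNAs listed as abundant in hepatocytes were tested, with 6 above and 3 below 0, from -0.15 (miR-148a) to 0.15 (miR-122). The split depended on the scaling, with 3 above 0 after quantile normalisation, 1 in the authors' values and 0 with array medians centred. Of the 9 blood and immune cell miRNAs, 3 were tested. MiR-451, a miRNA of red blood cells, was 9.40, 8.95 and 8.80 in controls and 9.32, 8.71, 8.96, 8.41 and 8.36 in dosed animals, so that dosed animal 3 was above its controls and the other 4 were below those of their slide. Its difference was -0.34 ± 0.28 (SE; adjusted P = 0.606), that of miR-144 was -0.08 ± 0.11 and that of miR-223 was 0.04 ± 0.03. The endothelial miR-126-3p differed by -0.02 ± 0.05 (SE). Of 6 stellate and mesenchymal miRNAs only miR-199a-3p was tested, and no miR-143, miR-145 or miR-214 probe was kept. None of the 5 bile duct miRNAs was tested, and none was well above background on more than 2 of the 8 arrays. The injury-linked miR-21 was 0.04 ± 0.11 (SE).

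At the higher doses the same miRNAs were read against the same 3 controls, so the values stand side by side only. With 25, 50 and 75 mg/kg/day, in that order, the difference of miR-34a was 0.43, 1.17 and 2.07. MiR-27b was 0.13, -0.01 and 0.03, and miR-720 was 0.17, 0.23 and 0.16. MiR-322 was -0.18, -0.16 and -0.20, miR-148a was -0.15, -0.22 and -0.22, and miR-7a was -0.12, -0.15 and -0.17. MiR-199a-3p was -0.09, -0.16 and -0.22. Directly between doses, 1 of 69 names (1.45%) passed the adjusted threshold at 50 against 25 mg/kg/day. This was miR-34a, with a difference of 0.74 ± 0.16 (SE; adjusted P = 0.0220). It was not past the threshold without dosed animal 1 (adjusted P = 0.0610), without dosed animal 2 (adjusted P = 0.121) or without the first array at 50 mg/kg/day (adjusted P = 0.107). At 75 against 25 mg/kg/day 2 of 69 names (2.9%) passed, miR-34a and let-7c. MiR-27b at 50 minus 25 mg/kg/day was -0.14 ± 0.04 (SE; adjusted P = 0.147), and no other of the miRNAs named for their P at 25 mg/kg/day differed from the higher doses past the threshold.

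The count of 0 depended on the values used. The table that the authors deposited, put through the same model for the same 69 names, gave 7 miRNAs past the threshold, all lower at 25 mg/kg/day: let-7c, let-7g, miR-10a, miR-26b, miR-101a, miR-148a and miR-199a-3p. In those values the median of the 69 tested names was -0.11, and relative to it the 7 lay between -0.28 and -0.08. Over all 574 names of that table the median was -3.5e-04. MiR-10a was 6.68, 6.64 and 6.67 in controls and 6.38, 6.50, 6.51, 6.46 and 6.48 in dosed animals there, so that the groups did not overlap (-0.20 ± 0.04, SE; adjusted P = 0.0144). In the main processing miR-10a overlapped between groups on slide 3. The median deviation of the 69 names from the controls of the slide was -0.10, -0.09, -0.01, -0.20 and -0.19 in dosed animals 1 to 5 in the authors' values, against -0.03, -0.0043, 0.01, -0.05 and -0.01 in the main processing. It was thus lower in every dosed animal with the authors' values. Dosed animals 4 and 5 had the lowest summed signal, dosed animals 1 and 2 did not, and the part of signal in the 7 results was not tested. When all names in the deposited values were tested, 2 passed, miR-10a (lower) and miR-323-3p (0.07 ± 0.01 higher, SE), which was well above background on 0 of the 8 arrays.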

How the data were processed

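Agilent mouse miRNA arrays were measured in 18 livers, of which 8 enter the comparison of 25 mg/kg/day BaP with vehicle. The authors isolated total RNA with its small fraction, labelled it with cyanine 3 and extracted 1-colour spot intensities (Agilent Feature Extraction 10.7.3.1 per the sample records). Up to 6 probes carry another name on some arrays, and the names of slide 1 were kept for all. Deposited intensities are on a linear scale and not normalised between arrays. The authors also deposited a table of log2 values per miRNA name, whose centring is not given in the sources used here. It was used as an alternative only. Depth is not counted on arrays, and the number of arrays limits the precision.

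Median spot signals without background subtraction were normalised by cyclic loess over all 18 arrays, spots marked as outliers were removed, the median over spots of a probe and the mean over kept probes of a name were taken. Presence of a probe required 0.5 or more of its spots on that array to be well above background. Probes present on 0.8 or more of the arrays of any dose group were kept, 112 in all. Models were fitted in limma 3.58.1 (R 4.3.3) to all 18 arrays with dose group and slide, two-sided, with Benjamini-Hochberg adjustment over 69 names and a threshold of 0.05. The fit was checked on simulated data. Within-slide differences came from a fit of dose by slide cells. Exact permutation tests used all 56 arrangements, or the 30 within slides. For miR-34a the exact permutation P was 0.214, and 0.0333 within slides, the smallest possible there.

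The miRNAs named are miR-34a, the 5 with the smallest P in each direction, the extremes of each list and any past the threshold under an alternative. The miRNAs, lists and comparison were chosen with earlier results of these data known. MiRNAs outside that rule, named for lying to the same side of every control, were chosen after their values were seen, as were other family members. Alternatives covered scaling, background, filters, probes, samples in the fit, slide, weights and leaving out each array. For the processed and the total gene signal, arrays were scaled to their 75th percentile and low values were raised to a common floor before log2. The murine herpesvirus miRNA was kept in the fit.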

Additional observations from a re-analysis of the deposited data

Results flagged for a closer look

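Among the 69 names, 8 had a dosed animal apart from the other 4, judged by its gap to the nearest divided by the range of the group against a critical value of 0.71. Chance gives about 1 such group in 20, and 7 of the 8 lay on slide 1, which held 2 of the 5 dosed animals. The slide means were not removed for this reading. Dosed animal 1 was the lowest for let-7d (7.62 on the log2 scale, nearest 7.98, gap over range 0.767). It was the highest for miR-26a (7.18, nearest 6.66, 0.766), for miR-194 (7.01, nearest 6.64, 0.739) and for miR-144 (6.65, nearest 6.33, 0.734). Dosed animal 2 was the lowest for miR-322 (5.98, nearest 6.15, 0.752) and for miR-331-3p (5.96, nearest 6.18, 0.716), and the highest for miR-23a (7.65, nearest 7.36, 0.735). The case on slide 3 was miR-1224 in dosed animal 3, at 9.02 with the nearest dosed animal at 7.39 (gap over range 0.757). The controls were at 6.89, 7.72 and 7.27, and the difference of miR-1224 was 0.29 ± 0.29 (SE).

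The change of miR-26b on slide 3 exceeded that on slide 1 by 0.59 on the log2 scale, with an adjusted P of 0.0196 by limma over 69 names. The slides hold different animals, and slide 1 holds 1 control, so slide and animal cannot be told apart.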

How the results depend on the processing

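No paired analysis was possible because the labels give no replicate numbers that tie animals of different groups together. The count of miRNAs past the threshold at 25 mg/kg/day was 0 except with the authors' values for the same names (7), with all names of that table (2, added after seeing the data) and without control 3 (1, range 0 to 1 over the 18 fits that left out 1 array). MiR-34a kept its sign and stayed short of the threshold in all 16 alternatives that gave a value (0.21 to 1.58) and in the 18 fits without 1 array (0.32 to 0.53). Probes well above background on all 18 arrays gave it no value. The median of the 69 tested names moved from -0.02 to -0.23 with array medians centred and to -0.11 with the authors' values. It moved to 0.065 with the processed signal and to 0.040 with the total gene signal, and lay between -0.04 and -8.8e-05 without 1 array. Over all 574 names of the authors' table the median was -3.5e-04, so the -0.11 holds for the tested names only. The number of names with a difference between slides, given as 1 above, was 0 with quantile normalisation, array medians centred, the authors' values, the total gene signal, no filter, the 8 arrays alone in either form and the brightest probe, 2 with normexp and 7 with the processed signal (none of them miR-26b), and 0 to 15 without 1 array, with no value without control 1, the only control on slide 1. MiR-34a at 50 against 25 mg/kg/day was no longer past the threshold with no filter (0.74, adjusted P = 0.267), without slide (0.59, adjusted P = 0.261) or with array quality weights (0.55, adjusted P = 0.0595), and lay between 0.62 and 0.90 without 1 array. At 75 against 25 mg/kg/day it stayed past it throughout. The alternatives for the slides and between doses were also added after seeing the data. The causes were not tested. Signal over background limits the dim miRNAs, miR-34a among them.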

Other observations

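The viral name mghv-miR-M1-2, from a murine herpesvirus, had log2 signals of 5.96, 6.07 and 6.22 in controls and of 6.02, 6.12, 6.2, 6.35 and 6.35 in dosed animals. The difference was 0.13 ± 0.07 (SE; adjusted P = 0.487 by limma). Its kept probes were well above background on 0, 1 and 2 of 3 controls and on 3, 3 and 5 of 5 dosed arrays. The signal thus lies near the background, and whether it comes from a virus was not tested.

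Of the names that were not tested, 82 were called detected by the extraction software on at least 1 of the 8 arrays. None of them was detected in 4 or 5 dosed animals and in 0 controls, and none in all 3 controls and at most 1 dosed animal.

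Of the 41 names with more than 1 kept probe, 38 had the same sign at all probes. The exceptions were miR-106b (0.07 and -0.02), miR-107 (0.01 and -0.04) and miR-22 (-0.04 and 0.03). The widest gap between probes, 0.25, was that of miR-34a. Tested probe by probe, 0 of 112 passed the adjusted threshold by limma, and 10 had an unadjusted P below 0.05.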
